A study of Mus musculus with 2 samples.

Results

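Metallothioneins are small cysteine-rich proteins that bind zinc, copper and cadmium and take up reactive oxygen species. Their genes are switched on by the zinc-sensing factor MTF-1 and also respond to glucocorticoids and inflammatory cytokines. Cells add to this protection with enzymes that remove superoxide, peroxides, quinones and free haem, several of them under the factor NRF2. The genes described here are 6 of the 34144 listed for each library. They are the metallothioneins Mt1 (ENSMUSG00000031765) and Mt2 (ENSMUSG00000031762), the haem oxygenase Hmox1, the quinone reductase Nqo1, the secreted glutathione peroxidase Gpx3 and the mitochondrial superoxide dismutase Sod2. They were taken by symbol, and each of the 6 symbols had 1 row in both libraries.

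The study profiled single cells of long-bone marrow of wild-type C57BL6 mice, in 1 library labelled adult and 1 labelled old. Both were made by enzymatic digestion, lysis of red blood cells, depletion of haematopoietic cells, sorting of live cells and 10x Genomics 3' capture, so all cells described share those steps. Neither exact ages, sex nor the number of mice behind a library is stated in the labels. With 1 library per age no test of age was possible, and every interval below covers counting error only.

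Cells were placed by marker genes. The adult library had 25635 barcodes and 208637421 UMIs (unique molecular identifiers, each standing for 1 captured transcript). For the old one the numbers were 22298 and 229917243. After a filter on genes per cell and mitochondrial UMIs, 22403 adult and 18975 old cells were left, with medians of 7139 and 7736 UMIs. CAR-like cells (Cxcl12-abundant reticular cells, the Lepr+ stroma that supports blood stem cells) numbered 14845 and 13561. All 10 of their markers were found in over 10% of these cells in both libraries. Osteolineage-like cells numbered 1840 and 432, endothelial-like cells 1373 and 319, and pericyte or smooth muscle-like cells 358 and 164. The top genes of the old osteolineage-like cells included the cartilage genes Col2a1 and Col11a2. The old library also held 1229 plasma cell-like and 587 haemoglobin-low erythroid-like cells, against 0 and 40 in the adult library. No marker of their own was among the 10 leading genes of the old haemoglobin-low erythroid-like cells. The libraries shared 152 barcodes, 108 of them after the filter.

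Mt1 and Mt2 lie next to each other on chromosome 8, on the same strand, and their levels across cell types were more alike than those of any other pair of the 6 genes. Their start regions are shown because the data turn on this pair. RefSeq held a start region for 5 of the 6 genes, as a window from 250 bases before to 50 bases after the start it lists (build GRCm38.p6, plus strand for both metallothioneins). The Mt1 window is chr8:94178839-94179138 and the Mt2 window is chr8:94172368-94172667. Capitals mark matches on either strand to TGCACNC or TGCGCNC, the core of the metal response element to which MTF-1 binds.
Mt1: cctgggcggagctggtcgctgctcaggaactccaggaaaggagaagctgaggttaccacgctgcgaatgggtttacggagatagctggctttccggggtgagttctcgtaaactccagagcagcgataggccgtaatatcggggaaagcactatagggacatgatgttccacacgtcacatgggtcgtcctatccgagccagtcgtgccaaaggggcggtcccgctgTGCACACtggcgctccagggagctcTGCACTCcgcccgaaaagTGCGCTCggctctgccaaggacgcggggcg
Mt2: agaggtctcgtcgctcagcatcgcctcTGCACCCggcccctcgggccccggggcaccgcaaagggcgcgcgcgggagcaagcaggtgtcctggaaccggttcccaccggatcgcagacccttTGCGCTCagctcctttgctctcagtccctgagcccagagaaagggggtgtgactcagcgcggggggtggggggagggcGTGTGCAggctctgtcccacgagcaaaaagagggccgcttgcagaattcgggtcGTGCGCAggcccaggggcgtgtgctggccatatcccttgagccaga
The Mt1 window held 3 such matches and the Mt2 window held 4. The Mt1 matches from bases 253 and 271 of the window and the Mt2 match from base 255 lie after the listed start. Of 32851 windows of this length, 25.7% held at least 1 match, 1.97% at least 3 and 0.517% at least 4. The antioxidant response element core bound by NRF2, searched as TGACNNNGC, had 1 match in the Mt2 window, TGACTCAGC at bases 172 to 180, and none in the Mt1 window. It occurs in 12.4% of all windows. The windows of Nqo1, Gpx3 and Sod2 held no match to either motif, and no window was used here for Hmox1. A match describes letters, not a bound site.

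Mt2 was the member with the largest difference between the libraries in CAR-like cells. It counted 1529 UMIs in adult and 7803 in old CAR-like cells, or 12.7 CPM (the UMIs of a gene scaled to a common gate total; 95% Poisson interval 12.1 to 13.4) against 69.6 CPM (68.1 to 71.2). The old level was 5.47 times the adult one, a log2 ratio of 2.45 (exact 95% interval 2.37 to 2.53). Mt1 counted 11377 and 19901 UMIs, 94.7 CPM (93.0 to 96.5) in the adult and 177.6 CPM (175.2 to 180.1) in the old library. Its log2 ratio was 0.91 (0.87 to 0.94). Both metallothioneins were thus higher in the old CAR-like cells, and Mt2 by the larger factor.

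Gpx3, which encodes a selenium-containing peroxidase secreted into plasma, was higher in CAR-like cells than in any other gate of at least 50 cells. Only the 15 old fibroblast-like cells held more, 2645 CPM from 351 UMIs. Its CAR-like level was 979.7 CPM (adult) and 1486 CPM (old), a log2 ratio of 0.60 (0.59 to 0.61). Sod2, which turns mitochondrial superoxide into hydrogen peroxide, was at 145.9 and 193.6 CPM, a log2 ratio of 0.41 (0.38 to 0.44). Hmox1, which breaks down haem to biliverdin, iron and carbon monoxide, went the other way, with 18.5 CPM (adult) and 11.1 CPM (old) (log2 ratio -0.74, interval -0.84 to -0.64). Nqo1, a detoxifying reductase and a standard target of NRF2, was low in both, at 9.52 and 7.44 CPM (log2 ratio -0.36, interval -0.49 to -0.23).

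A gene was called when old and adult levels lay 2-fold or more apart and the larger of them reached 50 CPM and rested on 50 UMIs or more. In CAR-like cells 4 of the 6 genes met this minimum and 1, Mt2, was called higher, none lower. Mt2 met the minimum only through the old library. The larger level decides, so genes below 50 CPM in 1 library can enter through the other. The counts and medians of the gene lists below include such genes. Examples are Cat (38.7 and 53.6 CPM), higher in the old library, and Glrx (62.9 and 43.0 CPM), higher in the adult one. How the counts change without such genes was not tested. Of 4186 genes past the minimum in these cells, 2.72% were called higher and 1.79% lower. Mt2 ranked 23rd from the highest ratio among them, Mt1 136th, Gpx3 280th and Sod2 496th. The median log2 ratio of all these genes was 0.01. Short transcripts as a group were lower in the old library: the bin of shortest genes, which holds Mt1 and Mt2, had a median log2 ratio of -0.26.

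**Figure D1:**
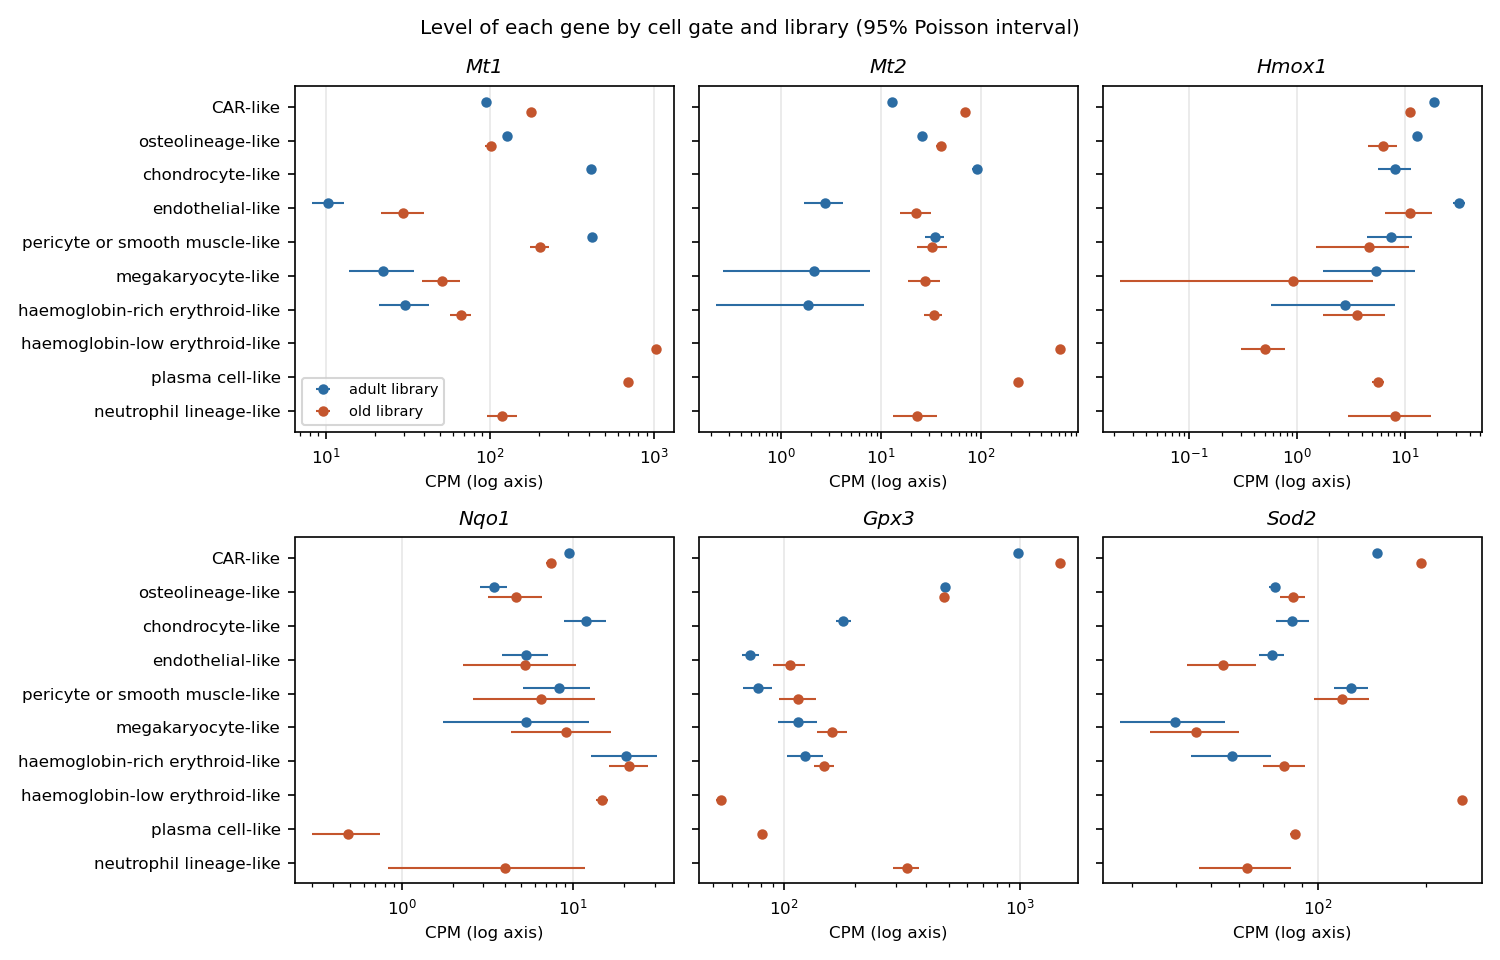
Level of each of the 6 genes (x axis, CPM, log scale, with its own range in each panel) in each cell gate of at least 50 cells (y axis), in the adult (blue) and old (orange) library; points are levels of 1 library and bars 95% Poisson intervals. Mt1 and Mt2 were highest in haemoglobin-low erythroid-like and plasma cell-like cells of the old library, and Gpx3 in CAR-like cells of both.

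More CAR-like cells of the old library held each metallothionein. At least 1 Mt2 UMI was found in 6.71% of adult CAR-like cells (exact binomial interval 6.31 to 7.12%) and 29.6% of old ones (28.9 to 30.4%). For Mt1 the shares were 28.7% and 52.1%. When every cell was thinned to 2000 UMIs, leaving out 700 adult and 783 old cells that were shallower, the expected shares were 2.15% and 11.1% for Mt2 and 12.4% and 23.8% for Mt1. In the adult library 0.310% of CAR-like cells had at least 20 Mt1 UMIs, against 0.398% in the old one. At the lower cut of at least 2 Mt1 UMIs the shares were 12.7% and 28.3%. The Mt1 shares thus lay closer, as a ratio, among the richest cells than at 1 or 2 UMIs. Cells with at least 5 Mt2 UMIs made up 0.195% and 2.02%, a wider gap than at 1 UMI. The richest cell had 60 Mt1 UMIs (adult) and 56 (old), while for Mt2 the maxima were 13 and 53.

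Most CAR-like cells, 89.4% (adult) and 92.0% (old), held Gpx3, so that its higher level in the old library came with more UMIs per cell. The median was 6 Gpx3 UMIs per adult and 9 per old cell, and 7.13% and 20.5% of the cells held at least 20. Sod2 was found in 56.8% and 63.3% of the cells, and in an expected 23.5% and 28.8% after thinning. Hmox1 was found in 11.9% and 7.38%, and Nqo1 in 6.97% and 5.62%. Thinned, Hmox1 stood at 3.41% and 2.11% and Nqo1 at 1.93% and 1.503%.

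**Figure D2:**
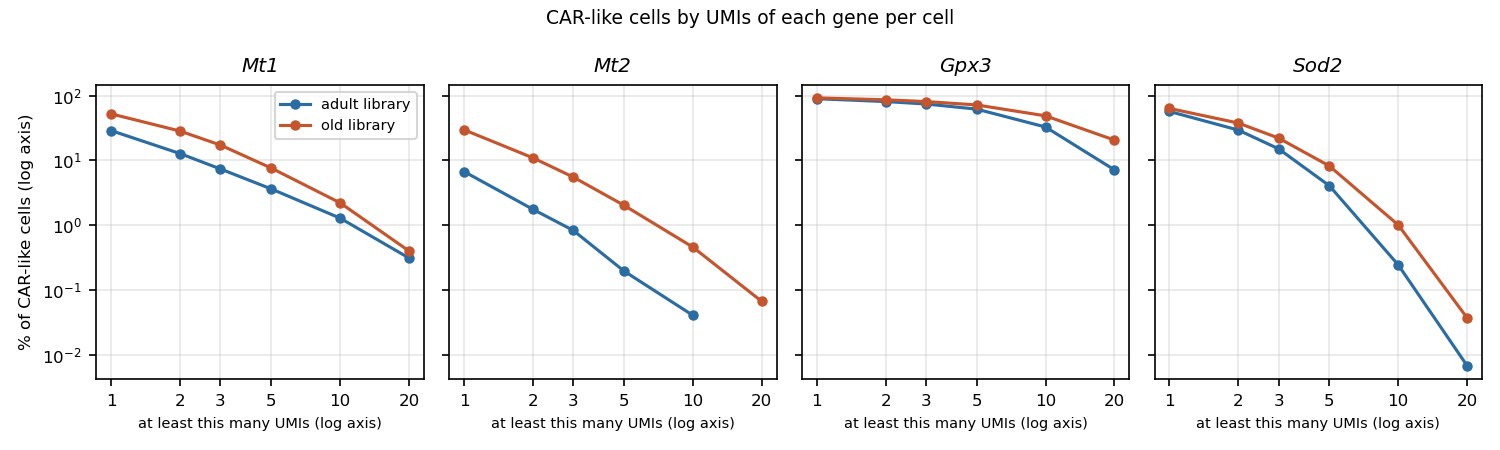
Share of CAR-like cells (y axis, percent, log scale) holding at least the number of UMIs on the x axis (log scale) for Mt1, Mt2, Gpx3 and Sod2, in the adult (blue) and old (orange) library. The Mt1 curves lie apart at 1 UMI (28.7 and 52.1%) and come close at 20 (0.310 and 0.398%), while those of Gpx3 open with the number of UMIs, and no adult cell held 20 Mt2 UMIs.

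Cells with one metallothionein tended to have the other. In the old library, Mt2 was found in 41.1% of CAR-like cells with a Mt1 UMI and in 17.1% of those without, and in the adult library in 15.5% and 3.18%. Cells with a Mt1 UMI were also deeper, with a median of 8629 against 6347 UMIs in the old library and 8730 against 6666 in the adult one. The level varied less with depth than between the libraries. From the shallowest to the deepest quartile of CAR-like cells, Mt2 went down from 80.6 to 63.6 CPM in the old library, and it lay between 9.62 and 14.6 CPM in the adult one. In each of those quartiles Mt2 was 4.80 to 8.38 times as high in the old library and Mt1 1.61 to 2.39 times.

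Free RNA from other cells is a value to set beside these counts, since the old library held cells very rich in metallothionein UMIs. Megakaryocyte-like cells, shallow cells with medians of 1550 and 1684 UMIs, serve as the comparison. They held 2.14 CPM of Mt2 from 2 UMIs in the adult library and 27.3 CPM from 30 UMIs in the old one, which is 16.8% and 39.2% of the level in CAR-like cells. Their share of cells with a Mt2 UMI was 0.485% and 8.36%, or 0.129% and 5.90% thinned to 2000 UMIs. For Mt1 they held 22.5 and 51.0 CPM, which is 23.8% and 28.7% of the level in CAR-like cells. With this level subtracted, CAR-like cells kept 10.6 (adult) and 42.3 CPM (old) of Mt2, and 72.2 and 126.7 CPM of Mt1, a log2 ratio of 0.81. This comparison is rough. Of gates of at least 50 cells, only endothelial-like cells held less Mt1 in the adult library (interval 8.31 to 12.9 CPM, against 13.9 to 34.4). Per cell, old megakaryocyte-like cells held 0.0896 Mt2 and 0.167 Mt1 UMIs, and old CAR-like cells 0.575 and 1.47.

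Genes that mark the metallothionein-rich cells gave a second measure. The 10 erythroid markers other than haemoglobin stood in old CAR-like cells at 2.06% of their level in haemoglobin-low erythroid-like cells. The same percentage of the erythroid-like Mt2 level is 12.8 CPM, and of the Mt1 level 21.1 CPM. A set of 6 plasma cell genes stood at 0.660% of their level in plasma cell-like cells, equal to 1.53 CPM of Mt2 and 4.58 CPM of Mt1. These values are below the measured 69.6 and 177.6 CPM. The measure is rough: in megakaryocyte-like cells it gives 63.1 CPM of Mt2 and 104 CPM of Mt1, above the 27.3 and 51.0 CPM found. Over quartiles of old CAR-like cells by a list of blood cell RNAs (haemoglobins, immunoglobulins, granule proteins), Mt2 lay between 66.9 and 72.6 CPM and Mt1 between 173.1 and 181.3 CPM, although the median depth of these quartiles ran from 11068 down to 3732 UMIs. Of its genes past the minimum, Igkc stood at 2092 CPM in these cells and the haemoglobin genes at 38.4 to 117 CPM. The list holds none of the 10 erythroid markers other than haemoglobin. These quartiles therefore cannot follow RNA of haemoglobin-low erythroid-like cells. The part of free RNA in the remaining difference was not tested further.

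Across the cell types the 6 genes had different homes, given here for gates of at least 50 cells. In the adult library Mt1 was highest in pericyte or smooth muscle-like cells (418 CPM, interval 393 to 444) and chondrocyte-like cells (415 CPM, 396 to 435), whose intervals overlapped. Osteolineage-like cells followed with 126.9 CPM, then CAR-like cells with 94.7 CPM, haemoglobin-rich erythroid-like cells with 30.6 CPM, megakaryocyte-like cells with 22.5 CPM and endothelial-like cells with 10.4 CPM. Among these later neighbours, haemoglobin-rich erythroid-like and megakaryocyte-like cells overlapped. Mt2 had chondrocyte-like cells at the top of the adult library (90.6 CPM), before pericyte or smooth muscle-like (34.3 CPM), osteolineage-like (25.6 CPM) and CAR-like cells (12.7 CPM). Endothelial-like, megakaryocyte-like and haemoglobin-rich erythroid-like cells lay at 1.85 to 2.73 CPM, with overlapping intervals. The 40 adult haemoglobin-low erythroid-like cells, under that limit, held more than every one of these gates, with 578.3 CPM of Mt1 (533.7 to 625.7) and 258.0 CPM of Mt2 (228.5 to 290.2).

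In the old library the same erythroid-like gate, there of 587 cells, led the order, before plasma cell-like cells. Haemoglobin-low erythroid-like cells held 1025 CPM of Mt1 (1015 to 1036) and 620.1 CPM of Mt2 (612.2 to 628.0). Plasma cell-like cells held 694.5 CPM of Mt1 and 232.1 CPM of Mt2. In the erythroid-like cells the metallothioneins were evenly spread, with a median of 66 Mt1 and 40 Mt2 UMIs per cell and a Mt2 UMI in 97.3% of the cells. Their median depth was 66011 UMIs. Plasma cell-like cells varied more, with a median of 7 Mt1 UMIs, a 90th percentile of 63 and a maximum of 520. The erythroid-like gate was added after cells in no other gate were seen to be rich in these UMIs, so its high level is a description.

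These non-stromal cells held most metallothionein UMIs of the old library. Haemoglobin-low erythroid-like cells made up 3.09% of its cells and held 53.7% of its Mt2 and 41.1% of its Mt1 UMIs. Plasma cell-like cells made up 6.48% and held 22.8% and 31.7%. CAR-like cells, 71.5% of the library, held 17.8% and 21.0%. In the adult library CAR-like cells, 66.3% of the cells, held 41.4% of the Mt2 and 51.3% of the Mt1 UMIs, and osteolineage-like cells held 25.05% and 20.6%. A sum over all cells of each library would therefore compare different cells.

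Below the top, old pericyte or smooth muscle-like cells held 200.7 CPM of Mt1 (174.8 to 229.4) and CAR-like cells 177.6 CPM (175.2 to 180.1), which overlap. The order went on with neutrophil lineage-like (119.4 CPM, 65 cells), osteolineage-like (101.0 CPM), haemoglobin-rich erythroid-like (66.6 CPM), megakaryocyte-like (51.0 CPM) and endothelial-like cells (29.7 CPM). Intervals overlapped between the first pair of these and between each neighbour of the last 3. For Mt2, CAR-like cells (69.6 CPM) came next after the plasma cell-like ones. Osteolineage-like cells followed at 39.9 CPM, and the other 5 gates lay at 22.4 to 33.5 CPM. From osteolineage-like cells down, each Mt2 interval overlapped the next.

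Gpx3 followed the stroma. After CAR-like cells came osteolineage-like cells, at 482.2 CPM (adult) and 475.9 CPM (old). Adult chondrocyte-like cells held 178.4 CPM and old neutrophil lineage-like cells 331.3 CPM. Endothelial-like cells (71.9 and 105.5 CPM) and pericyte or smooth muscle-like cells (77.7 and 114.8 CPM) lay below megakaryocyte-like cells (114.7 and 160.2 CPM). CAR-like cells held 77.7% of all Gpx3 UMIs of the adult and 88.7% of the old library.

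Sod2 was more even, with a 3.68-fold span from the lowest to the highest gate in the adult library and 5.55-fold in the old one. Among gates of at least 50 cells, CAR-like cells led in the adult library, while the 40 haemoglobin-low erythroid-like cells held 197.4 CPM (171.8 to 225.9). In the old library haemoglobin-low erythroid-like cells (252.4 CPM) came before CAR-like cells (193.6 CPM). Hmox1 was highest in endothelial-like cells of the adult library, at 31.9 CPM (28.1 to 36.0), above CAR-like cells at 18.5 CPM, under the same limit on cells. The monocyte or macrophage-like gate, 2 adult and 5 old cells, held 7 and 3 Hmox1 UMIs, too few cells for a level. In the old library endothelial-like (11.2 CPM, 6.53 to 18.0) and CAR-like cells (11.1 CPM) overlapped, and haemoglobin-low erythroid-like cells were last at 0.500 CPM from 19 UMIs. Nqo1 was highest in haemoglobin-rich erythroid-like cells, at 20.4 CPM in the adult library, where adult chondrocyte-like cells overlapped, and 21.2 CPM in the old, and lowest in old plasma cell-like cells at 0.486 CPM.

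Outside CAR-like cells the ratios of old to adult differed by gate. Mt1 was higher in the old library in megakaryocyte-like (log2 ratio 1.18, interval 0.43 to 1.98) and haemoglobin-rich erythroid-like cells (1.12, interval 0.58 to 1.71), as in CAR-like cells. Unlike in CAR-like cells, Mt1 was called higher in both of these gates, though past the minimum only through the old library. From the highest ratio it ranked 200th of 2631 and 49th of 2282 genes there. Mt2, under the minimum in both, counted 2 adult UMIs in each of these gates, against 30 and 93 in the old library. Gpx3 was higher in old endothelial-like (0.55) and pericyte or smooth muscle-like cells (0.56) too. Its level in both gates lay below that of megakaryocyte-like cells in both libraries, and the megakaryocyte-like log2 ratio was 0.48 (0.13 to 0.84). In pericyte or smooth muscle-like cells the Gpx3 ratio turned below 0 under 2 alternatives, down to -0.42. Mt1 in pericyte or smooth muscle-like cells was lower in the old library. There Mt1 was 418 CPM from 1061 UMIs in the adult and 200.7 CPM from 215 UMIs in the old library, a log2 ratio of -1.06 (-1.28 to -0.85). It was the 1 gene called lower among the 3 members past the minimum there, with none called higher. Of all 4411 genes past the minimum in this gate, 2.99% were called lower and 4.85% higher. The log2 ratio lies close to the 2-fold line, and with ratios centred on genes of like length it was -0.62 and no longer called. Mt1 UMIs were concentrated: the richest 10% of these cells held 65.4% (adult) and 72.6% (old) of them. Mt2 stood at 34.3 and 32.7 CPM, and the old value was within the interval of the megakaryocyte-like level.

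In osteolineage-like cells no member was called among the 3 past the minimum, while 11.3% of 3600 genes were called higher and 4.89% lower. Mt1 stood at 126.9 CPM (adult) and 101.0 CPM (old) (log2 ratio -0.33, interval -0.45 to -0.21). Mt2 stood at 25.6 and 39.9 CPM (0.64, interval 0.44 to 0.83) and was not past the minimum. With the megakaryocyte-like level subtracted these ratios were -1.06 for Mt1, which then passed 2-fold, and -0.90 for Mt2, which turned its direction. The old level subtracted rests on 56 Mt1 and 30 Mt2 UMIs of much shallower cells. For Mt2 the old osteolineage-like interval (35.3 to 44.9 CPM) overlapped the megakaryocyte-like one (18.4 to 39.0 CPM). Per cell, old megakaryocyte-like cells held 0.167 Mt1 and 0.0896 Mt2 UMIs, and old osteolineage-like cells 1.60 and 0.634. Gpx3 (-0.02) and Sod2 (0.17) differed little, against a median of 0.20 over all genes of this gate. Hmox1 stood at 13.1 and 6.26 CPM (-1.07, interval -1.55 to -0.61), below the minimum in both libraries.

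In endothelial-like cells 2 members, Gpx3 and Sod2, were past the minimum and neither was called, while 5.85% of 4566 genes were called higher and 4.34% lower. Hmox1 was 31.9 CPM from 257 UMIs in the adult and 11.2 CPM from 17 UMIs in the old library (log2 ratio -1.51, interval -2.31 to -0.80), short of the minimum. Sod2 was 74.0 and 54.1 CPM (-0.45, interval -0.80 to -0.12), and without the megakaryocyte-like level its ratio was -2.00. Mt1 (10.4 and 29.7 CPM) and Mt2 (2.73 and 22.4 CPM) did not exceed the megakaryocyte-like level beyond their intervals in either library. Of the old values, the erythroid marker measure equals 27.2 CPM for Mt1 and 16.5 CPM for Mt2. Their log2 ratios were 1.51 and 3.04, and the part of free RNA in them was not tested.

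**Figure D3:**
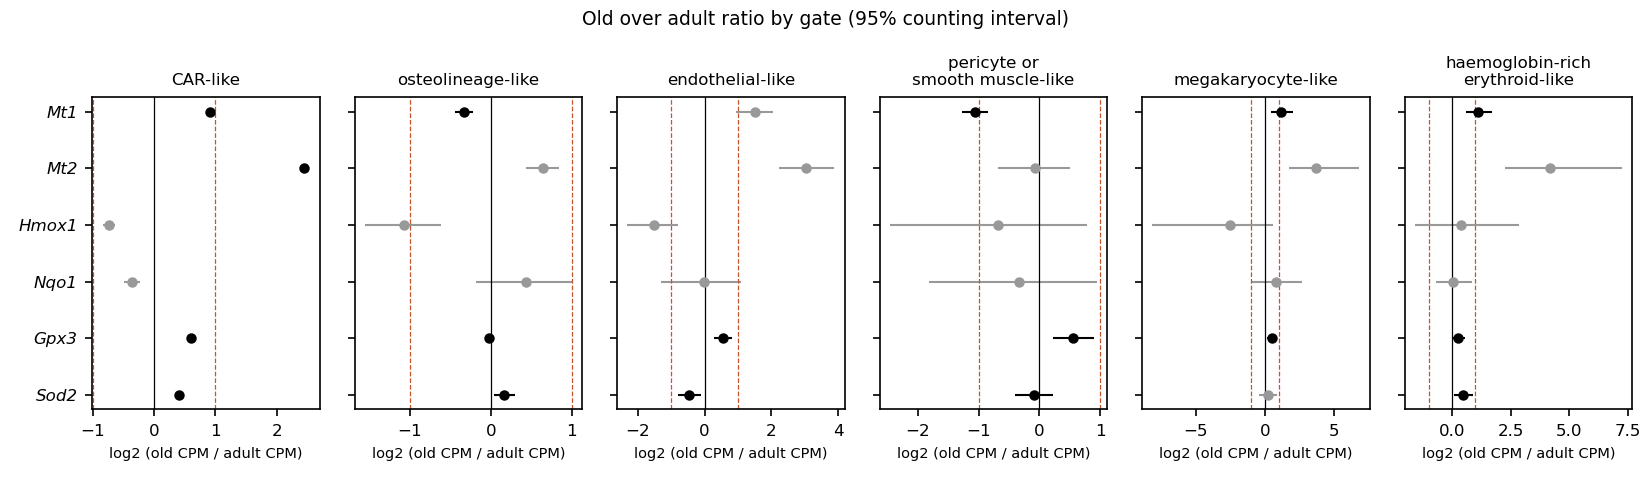
Log2 ratio of the old over the adult level (x axis, with its own range in each panel) of the 6 genes in the 6 gates with at least 100 cells in both libraries; bars are exact 95% counting intervals, dashed lines mark 2-fold, and grey points are below the minimum of 50 CPM and 50 UMIs. Mt2 in CAR-like cells (2.45) lies past the upper line and Mt1 in pericyte or smooth muscle-like cells (-1.06) just past the lower one. Mt1 in megakaryocyte-like (1.18) and haemoglobin-rich erythroid-like cells (1.12) also lies past the upper line.

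Mt2 gave a larger share of metallothionein UMIs in the old library in each gate measured in both. In CAR-like cells Mt2 made up 11.8% of Mt1 and Mt2 UMIs in the adult (exact binomial interval 11.3 to 12.4%) and 28.2% in the old library (27.6 to 28.7%). In osteolineage-like cells the share was 16.8% and 28.3%, while pericyte or smooth muscle-like cells had 7.58% (6.11 to 9.26%) and 14.0% (9.95 to 18.9%). In endothelial-like cells it was 20.8% and 43.0%, and the intervals did not overlap. In megakaryocyte-like cells it was 8.70% and 34.9% with overlapping intervals, since the adult value rests on 2 Mt2 UMIs. Haemoglobin-rich erythroid-like cells had 5.71% and 33.5%. The cells richest in metallothionein, old haemoglobin-low erythroid-like cells, had 37.7% and plasma cell-like cells 25.05%. The 40 adult haemoglobin-low erythroid-like cells had 30.8%, from 898 UMIs. How much of the shared direction comes from free RNA of the old library was not tested.

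**Figure D4:**
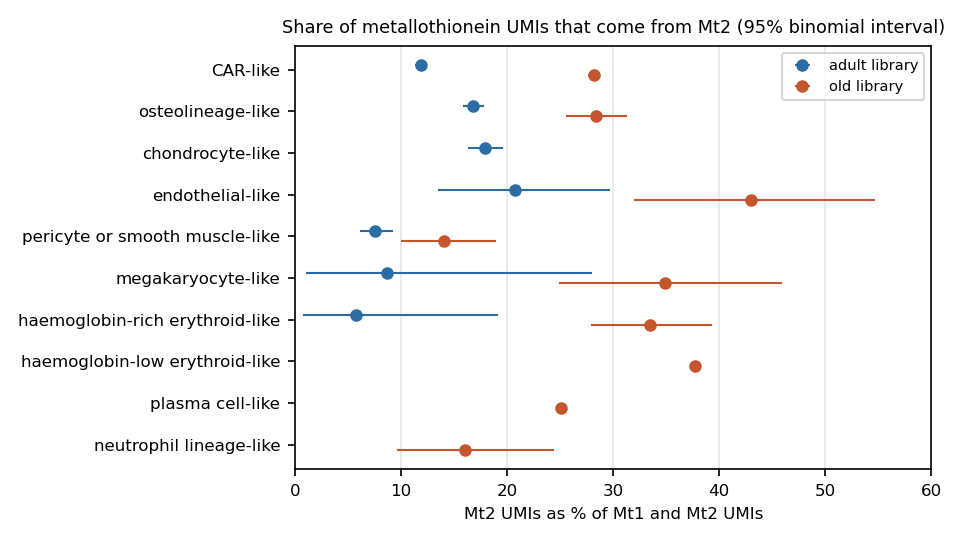
Mt2 UMIs as a percentage of Mt1 and Mt2 UMIs together (x axis) in each gate of at least 50 cells (y axis), adult library in blue and old library in orange, with exact 95% binomial intervals. The old share is above the adult one in all 6 gates measured in both libraries, for example 28.2 against 11.8% in CAR-like cells.

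Within CAR-like cells the metallothioneins went with the level of several gene lists. Each library's CAR-like cells were split into quartiles by the summed level of a list, which gives a description of cells of 1 library and no test. Quartiles of the same number were thus not matched in list level between the libraries. In the summed level of a list, genes of high level weigh most. Immediate early genes (Fos, Jun, Egr1 and others) are induced within minutes by stimuli that include tissue dissociation. From the quartile of cells with the lowest level of this list to the quartile with the highest, Mt1 went from 35.0 to 226.5 CPM in the adult and from 115.3 to 284.2 CPM in the old library. Mt2 went from 4.91 to 28.3 CPM and from 48.0 to 100.3 CPM. Between the libraries the list itself went the other way from the metallothioneins: 17 of its 18 genes were past the minimum in CAR-like cells, all 17 were lower in the old library, 5 of them at least 2-fold, with a median log2 ratio of -0.67. Nr4a1 (-1.61), Ier5 (-1.57), Atf3 (-1.33) and Fos (2421 and 1014 CPM, -1.26) were the furthest apart. The old library had more Mt2 in each quartile, by 9.79-fold in the lowest and 3.55-fold in the highest, and more Mt1, by 3.30-fold and 1.254-fold.

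A second list holds NF-kB targets and acute phase genes such as the complement gene C3 and the serum amyloid gene Saa3. Over its quartiles Mt1 went from 45.5 to 209.3 CPM in the adult and from 106.8 to 311.2 CPM in the old library, and Mt2 from 5.98 to 27.7 CPM and from 36.2 to 128.4 CPM. Gpx3 differed more along this list in the old library: it went from 949.4 to 2135 CPM there and from 895.0 to 1007 CPM in the adult library. Sod2 went from 156.6 to 262.8 CPM in the old and from 138.8 to 167.3 CPM in the adult library. In the lowest quartile the old level of Gpx3 was 1.06 times the adult one and in the highest 2.12 times. Of the 19 genes 13 were past the minimum, 8 with a higher and 5 with a lower level in old CAR-like cells, at a median log2 ratio of 0.05. C3 (80.9 and 800.3 CPM, 3.31) and Saa3 (2.56 and 50.5 CPM, 4.30) were past 2-fold. C3 thus weighs more in the quartiles of the old library. Megakaryocyte-like cells held 7.50 and 73.7 CPM of C3. The cytokine receptor gene Osmr (114.4 and 226.5 CPM, 0.98) and the adhesion gene Icam1 (49.7 and 85.4 CPM, 0.78) came close.

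**Figure D5:**
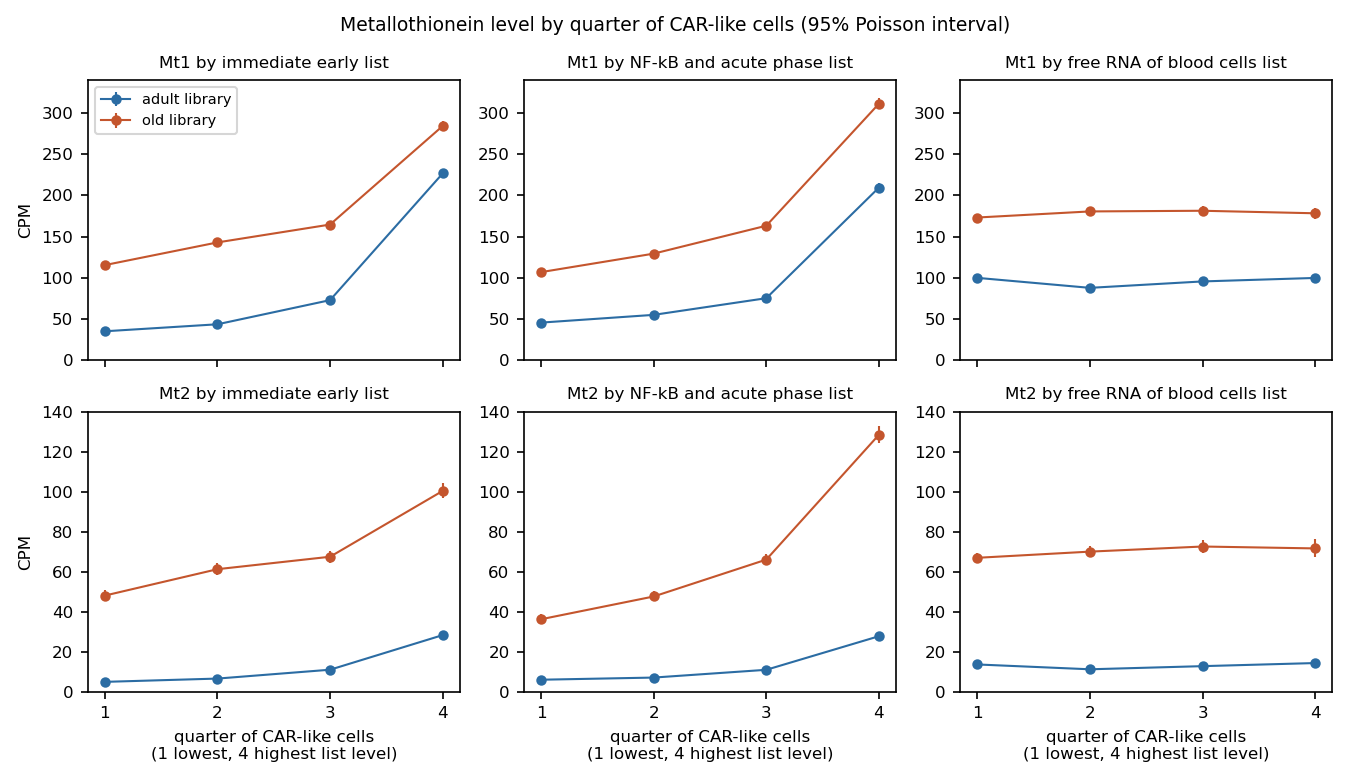
Mt1 (top) and Mt2 (bottom) level (y axis, CPM) in quartiles of CAR-like cells ordered by the level of 3 gene lists (x axis), adult library in blue and old library in orange, with 95% Poisson intervals. Levels climb with the immediate early and the acute phase list in both libraries, for example Mt2 from 36.2 to 128.4 CPM in the old one, and are flat over the list of blood cell RNAs. That last list holds no erythroid marker other than haemoglobin.

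Glucocorticoid target genes gave a similar order, with Mt1 going from 44.2 to 202.5 CPM in the adult and from 130.6 to 259.0 CPM in the old library over their quartiles. As a list they did not lean one way between the libraries: of 9 genes past the minimum 4 were higher and 5 lower in the old library, none 2-fold, with a median log2 ratio of -0.18. Fkbp5, a chaperone of the glucocorticoid receptor, was at 83.7 and 162.4 CPM (0.96). Zbtb16 was at 106.0 and 158.0 CPM (0.58). Sgk1, a kinase gene, was at 77.3 and 48.0 CPM (-0.69), and the phosphatase gene Dusp1, which the immediate early list also holds, at 516.0 and 280.7 CPM (-0.88). Dusp1 had the highest level of the genes named from this list in both libraries. The order over these quartiles is therefore not independent of that over the immediate early list. Along the NRF2 list Mt1 went from 55.7 to 145.3 CPM and from 118.6 to 249.2 CPM. Hmox1 was 1.87 and 1.90 times as high in its top as in its bottom quartile and Nqo1 1.06 and 1.11 times. Over quartiles by metal handling genes Mt1 differed little, by a factor of 0.75 (adult) and 0.92 (old) from the lowest to the highest quartile. The ceruloplasmin gene Cp stood at 943.2 and 1385 CPM, far above the other genes named from this list. Cp therefore weighs most among them in these quartiles. Whether Mt1 followed the other metal handling genes was not tested.

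The metal handling genes themselves were few in CAR-like cells. Of 22 listed, 5 were past the minimum, 4 higher and 1 lower in the old library, none 2-fold, with a median log2 ratio of 0.21 against 0.01 over all genes. Cp, the copper-carrying ferroxidase ceruloplasmin, was at 943.2 and 1385 CPM (0.55). The zinc importer gene Slc39a14 was at 71.1 and 97.0 CPM (0.45). The zinc transporter genes Slc30a9 (0.21) and Slc30a7 (0.20) differed less. Slc30a9 (43.6 and 50.6 CPM) was past the minimum only through the old library. Mtf1, which encodes the zinc sensor, was at 24.6 and 31.1 CPM, under the minimum. The other metallothionein genes were nearly silent, with 6 Mt3 UMIs in each library and no Mt4 UMI.

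NRF2 genes did not share a direction. Of 25 listed, 14 were past the minimum, 6 higher and 8 lower in old CAR-like cells, none 2-fold, with a median log2 ratio of -0.06. Nfe2l2, which encodes NRF2, was at 107.2 and 99.2 CPM (-0.11), its inhibitor gene Keap1 at 30.9 and 36.3 CPM, and Bach1, a repressor of Hmox1, at 72.1 and 67.3 CPM (-0.10). Gsr, which regenerates glutathione, was at 307.6 and 500.8 CPM (0.70), and the small Maf gene Mafg at 39.0 and 56.1 CPM (0.53). The exporter gene Abcc1 was at 39.6 and 55.2 CPM (0.48). In megakaryocyte-like cells Gsr stood at 360.0 and 331.3 CPM, Mafg at 178.9 and 293.1 CPM and Abcc1 at 58.9 and 59.2 CPM. The part of free RNA in these genes was not tested. The carbonyl reductase gene Cbr3 was at 90.5 and 52.8 CPM (-0.78).

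Most other peroxide and superoxide enzymes were lower where Gpx3 and Sod2 were higher. Of 26 listed, 18 were past the minimum in CAR-like cells, 2 higher and 16 lower in the old library, none 2-fold, with a median log2 ratio of -0.32. The lower ones included Prdx4 (189.8 and 124.9 CPM, -0.60), a peroxiredoxin of the secretory pathway, Gpx8 (293.4 and 211.3 CPM, -0.47) and the glutaredoxin gene Glrx (62.9 and 43.0 CPM, -0.55). Catalase, Cat, was at 38.7 and 53.6 CPM (0.47). Megakaryocyte-like cells held 211.1 and 282.1 CPM of Cat, so that Cat was higher in the old library there as well. The part of free RNA in it was not tested. The shortest bins of genes had medians of -0.26 and -0.28 in CAR-like cells. The lengths of the listed genes were not examined, and a part of length in their lower level was not tested. The same list stood at -0.36 in osteolineage-like cells and at -0.47 in the pericyte or smooth muscle-like ones, where 15 of 18 and 16 of 20 genes were lower. In endothelial-like cells it stood at -0.14, against -0.03 over all genes, with 9 of 15 genes lower and 6 higher.

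Genes of haem and iron and of glutathione were split. Of 9 haem and iron genes past the minimum, out of 19, 3 were higher and 6 lower in old CAR-like cells, at a median of -0.05. Fth1, the ferritin heavy chain that stores iron, was the 1 past 2-fold, at 5767 CPM (adult) and 2366 CPM (old) (-1.29). Megakaryocyte-like cells held 11955 and 6582 CPM of Fth1, so that Fth1 was lower in the old library there as well. Haptoglobin, Hp, was at 2208 and 2731 CPM (0.31), Hmox2 at 61.6 and 51.7 CPM (-0.25) and Steap4 at 191.4 and 162.0 CPM (-0.24). Of 8 glutathione genes past the minimum, out of 21, 5 were higher and 3 lower, at a median of 0.31. Beside Gsr these included Ggt5 (163.2 and 217.8 CPM, 0.42), Gstm1 (71.4 and 90.1 CPM, 0.34) and Slc3a2 (73.1 and 58.3 CPM, -0.33).

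Among genes for enzymes that make reactive oxygen, 4 of 12 were past the minimum, 3 higher and 1 lower, at a median of 0.73. Cybb, the catalytic subunit of the phagocyte NADPH oxidase, was at 19.9 and 102.6 CPM (2.37, at least 2-fold). Plasma cell-like cells held 199.7 CPM of Cybb. Megakaryocyte-like cells held 2.14 CPM (adult) and 14.6 CPM (old) of Cybb, so that Cybb was higher in the old library there as well. Xdh, xanthine dehydrogenase, was at 111.0 and 207.2 CPM (0.90) and Cyba, the partner of Cybb, at 60.04 and 88.1 CPM (0.55). Megakaryocyte-like cells held more Cyba, 620.4 and 475.1 CPM, with the lower level in the old library. Maob, a monoamine oxidase gene, was at 139.8 and 89.8 CPM (-0.64). In the list of blood cell RNAs, 4 of 15 genes were past the minimum in CAR-like cells. Igkc was at 0.549 and 2092 CPM, while Hba-a1, Hbb-bs and Hba-a2 were lower in the old library (-0.49, -0.48 and -0.44).

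Likeness across cell types was measured as Pearson's r of log2(CPM + 10) over the 16 combinations of gate and library with at least 50 cells, among 5360 or 5361 genes. It is a description, since gates of 1 library share free RNA. Mt1 and Mt2 were each other's most like gene (r = 0.88). Next came Mrps34 and Ndufs8 for Mt1 (0.81 for both) and Rpl10, a ribosomal protein gene, for Mt2 (0.83). Gpx3 was most like the CAR cell genes Ackr4 (0.94), Pdgfra (0.93) and Cxcl14 (0.93), of which Pdgfra and Cxcl14 are among the markers that define the gate. Hmox1 was most like Dock4 (0.90), Npnt (0.87) and Nrcam (0.85), and Nqo1 most like Glrx5 (0.87), Fbxo30 (0.87) and Txnrd2 (0.86). Sod2 was most like Clpp (0.87), Snrnp70 (0.86) and Etfa (0.85). Among the 6 genes themselves, Sod2 was the next most like the metallothioneins, with r of 0.68 to Mt1 and 0.63 to Mt2, while Hmox1 gave -0.35 and -0.41.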

How the data were processed

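The deposited values were raw UMI counts per gene and barcode for 2 libraries, made by the authors with Cell Ranger (7.0.1, per the file headers) on GRCm39 (per the submitters' processing notes). Barcodes with at least 500 genes and at most 10% mitochondrial UMIs were kept. Cells were placed in 15 gates by having at least 5 of a type's markers and a minimum of marker UMIs per 10000, which was set after the data were seen. In the CAR-like gate 2077 adult and 1261 old cells lay within 25% of that minimum. The haemoglobin-low erythroid-like gate (5 of 10 erythroid markers without haemoglobin) was added later still. Cells in several gates (1161 and 235), possible doublets, and in no gate (2051 and 1721) were left out, and no doublet caller was run. UMIs were summed per gate and library and divided by the gate's total (CPM). Ratios carry exact conditional intervals, levels exact Poisson intervals and shares exact Clopper-Pearson intervals, all at 95%, in Python 3.11.15 with scipy 1.17.1. Thinning to 2000 UMIs used the exact expectation. The comparison was tested on simulated data. Named genes were the 6 members, the 3 genes most like each (at least 100 CPM in 1 profile), up to 4 genes per list with the largest ratio in CAR-like cells, and 4 regulators; 1 gene that this rule names is not reported here. The members and lists were chosen with earlier results of these data known. Alternatives included edgeR 4.0.16 TMM factors, stricter filters and gates, and centring in 20 bins of exonic length (GENCODE M21, by Ensembl identifier). Promoter windows are from RefSeq, GRCm38.p6, another build than the counts.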

Additional observations from a re-analysis of the deposited data

Results flagged for a closer look

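The direction of the difference between the libraries was not the same in all gates for Mt1 and Sod2, each past the minimum in the gates compared, with counting intervals on opposite sides of 0. Mt1 was higher in old CAR-like and lower in old pericyte or smooth muscle-like cells, 1.97 apart on the log2 scale. Against osteolineage-like cells, where Mt1 was also lower, the gap was 1.24. Sod2 was higher in old CAR-like and osteolineage-like cells and lower in old endothelial-like cells, with gaps of 0.86 and 0.62. With 1 library per age these differences were not tested. The Sod2 ratio in osteolineage-like cells turned below 0 with edgeR's TMM factors and with centring by gene length, so that the last gap depends on the scaling.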

How the results depend on the processing

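There were 12 alternatives, of which each member ratio had 10 to 12, 268 values in all, and 4 of the 12 (cells of several gates kept, marker minimum 1.5 times as high, megakaryocyte-like level subtracted, centring by gene length) were chosen after seeing the data. Mt2 in CAR-like cells was called under all 12, with log2 ratios of 2 or more and up to 2.71, and Mt1 ranged from 0.81 to 1.17. Mt1 in pericyte or smooth muscle-like cells ranged from -1.60 (without the deepest 10% of cells) to -0.62. The count of members called moved with centring by gene length from 1 to 2 in CAR-like cells (Mt1 added) and from 1 to 0 in pericyte or smooth muscle-like cells (Mt1 lost). With the megakaryocyte-like level subtracted it moved from 0 to 1 in osteolineage-like (Mt1) and from 0 to 1 in endothelial-like cells (Sod2). In the old library the level subtracted rests on 56 Mt1 and 50 Sod2 UMIs. For Sod2 the old endothelial-like and megakaryocyte-like intervals overlapped, so that this call rests on a remainder within counting error. With no minimum the count moved from 0 to 1 in osteolineage-like (Hmox1) and from 0 to 3 in endothelial-like cells (Mt1, Mt2 and Hmox1). Over all genes the calls rose without a minimum from 189 to 7361 in CAR-like, from 582 to 10454 in osteolineage-like, from 465 to 9404 in endothelial-like and from 346 to 7320 in pericyte or smooth muscle-like cells. TMM factors shifted all log2 ratios by -0.32 in osteolineage-like cells, where the split of 406 higher and 176 lower became 221 and 313 (292 and 202 with centring by length). In pericyte or smooth muscle-like cells 214 and 132 became 162 and 184. Of 24 member ratios in the 4 stromal gates, 9 changed sign under at least 1 alternative, none of them in CAR-like cells and none of them called. The highest gate of a member moved for Hmox1 in the old library (CAR-like cells first, with each cell weighted alike and without the deepest 10% of cells). With the higher marker minimum it moved for Mt1, Mt2 and Sod2 in the adult library, to haemoglobin-low erythroid-like cells. Of the 6 shares of CAR-like cells with a UMI, 4 were higher in the old library at every thinning depth tried. No paired analysis was possible because each age has 1 library. Hmox1 and Nqo1 rest on 10 UMIs or fewer in several gates, and depth limits their order there.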
